A study of Mus musculus with 8 samples.

Results

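The late step of c-Src induction, from 24 to 72 h, was described by setting 2 arrays of cells induced for 72 h directly against 2 arrays of cells induced for 24 h. These are 4 of the 8 arrays of a time course at 0, 6, 24 and 72 h. All 8 arrays carried RNA of Csk-/- mouse embryonic fibroblasts (MEFs), cells that lack the kinase Csk, transfected with the vector pBKT2-c-Src. Expression of c-Src was induced with doxycycline at 1 µg/ml, so each induced group also differs from 0 h in the drug, and 72 h differs from 24 h in the time spent with it and in culture. No group with doxycycline and without the c-Src vector was analysed here, and c-Src, drug and time cannot be told apart. A probe was tested where both arrays of at least 1 of the 2 times were well above background, which held for 27587 of 55681 probes and gave 20197 genes. The number of clones and cultures is not given in the sources used here, and duplicates are labelled only as such. The p-values therefore reflect variation between the deposited arrays, and that variation may be purely technical.

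c-Src is a membrane-bound tyrosine kinase that signals to the Ras-ERK pathway, to STAT3 and to focal adhesions. Csk phosphorylates the regulatory tyrosine in the tail of Src family kinases and so holds them inactive, and fibroblasts without Csk lack this brake. Sustained Src activity in fibroblasts is known for loss of contact with the matrix, secretion of proteases and induction of immediate early genes, whose products shut the pathway down again through phosphatases and Sprouty proteins.

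The step from 24 to 72 h was wide, mostly small, and its large changes were mostly falls. Of the 20197 genes, 2181 rose and 2170 fell (limma, Benjamini-Hochberg adjusted p under 0.05), so that 21.5% of tested genes were called, 10.8% higher and 10.7% lower. At the probe level 21.2% were called. Of 12766 genes with a gene symbol 1682 rose and 1542 fell, and of 7431 with clone or locus names 15.2% were called. The lists below hold genes with symbols. Such genes were called more often than the 21.5% of all tested genes set beside the lists. The median size of a called difference was 0.37 on the log2 scale and the smallest was 0.16. Only 64 genes (0.317%) rose at least 2-fold, against 211 (1.04%) that fell at least 2-fold. The median difference over all tested genes was 0.02. Of 1663 other probes for called genes, 1370 (82.4%) moved in the same direction, 663 of them past the threshold, and 39 were called in the opposite direction. The split between rises and falls depended on the scaling. Called rises were 50.1% of calls with each array set to its 75th percentile, 62.3% (1556 higher, 942 lower) with each array set to its median and 54.0% after quantile normalization. They were 54.5% with normexp background correction and 41.7% (1869 higher, 2618 lower) with the percentile taken over spots bright on all arrays, and under these scalings the median difference of all probes lay between -0.019 and 0.046.

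Each array weighed on the counts. Without 24 h replicate 1 the calls were 711 higher and 1014 lower, without 72 h replicate 1 they were 402 and 638, and without 72 h replicate 2 they were 511 and 860. Without 24 h replicate 2, 137 genes instead of 64 rose at least 2-fold. Of 274 called genes in the lists below and among the largest changes, 46 kept their call in all of the up to 21 other settings tried, apart from a replicate block fitted to the 4 arrays alone, which left no gene called. In the 21 settings 0 were called in the opposite direction. The 46 include Ddit3, Fgf21, Snhg1, Egr2, Dusp6, Mmp3, Mmp10, Mmp13, Vcam1, Saa3, Ivl, Sprr1a, Txnip, Hey1, H19, Wnt4 and Wnt5a. A further 48 lost it only when dim probes were kept in the test, and the other 180 lost it in at least 1 more setting.

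**Figure D1:**
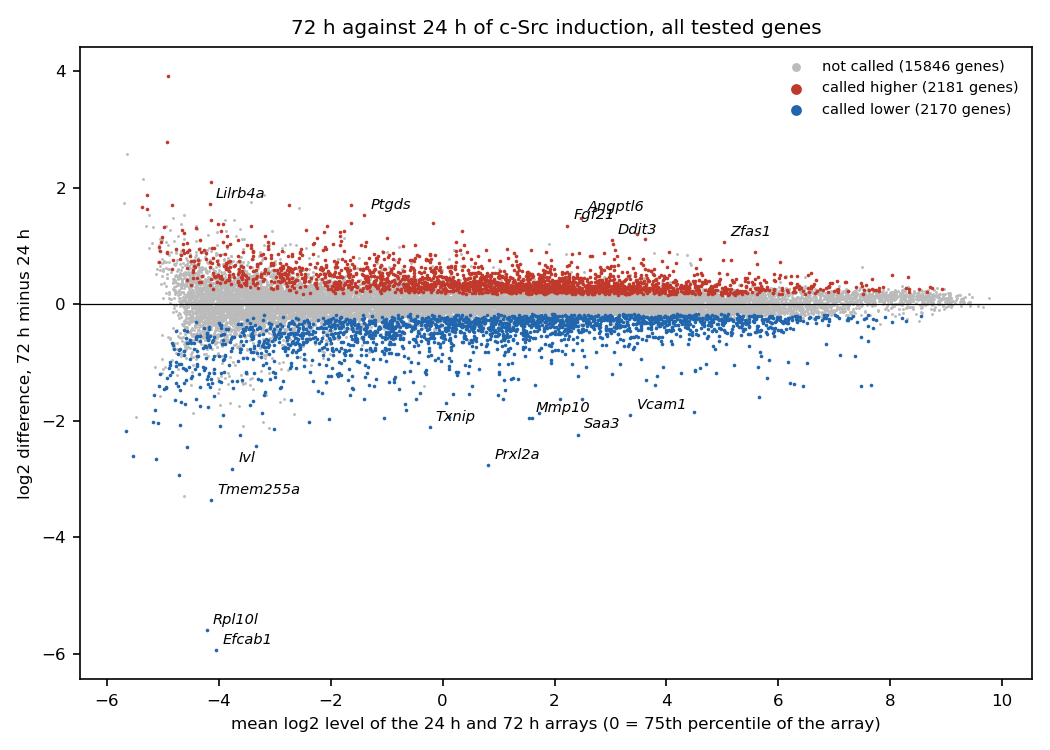
Log2 difference between 72 and 24 h (vertical axis) against the mean log2 level over the 4 arrays (horizontal axis, 0 is the 75th percentile of each array) for 20197 genes, with called rises in red, called falls in blue and other genes in grey. Large falls reach further than large rises, and the points with the widest spread lie at low levels.

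The arrays were even in quality. On the 4 arrays the share of spots well above background ran from 49.9% to 53.7%, no spot was saturated, and replicate arrays correlated at 0.9966 (24 h) and 0.9979 (72 h) across probes. The 8 arrays shared a slide, on which each time had a row of its own and each replicate number a column, so row and time cannot be told apart. In the 24 h pair the arrays were not placed evenly relative to 72 h. Replicate 2 lay nearer to the 72 h mean than replicate 1 for 61.3% of all tested genes and for 72.2% of called genes.

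The inducible kinase itself was still high. The Src probe read -1.35 and -1.19 at 0 h, 3.46 and 3.49 at 6 h, 3.29 and 3.31 at 24 h, and 3.03 and 3.02 at 72 h, all as log2 of the signal relative to the array's 75th percentile. Over the late step Src fell by 0.28 (SE 0.06, adjusted p = 0.0295), a step that is small beside its rise at 6 h. Both readings of 72 h lay below those of 24 h, a separation shared by 65.8% of all tested genes in either direction, and the call was lost in 9 of 21 other settings, with median scaling and without any 1 of the 24 and 72 h arrays among them (largest adjusted p = 0.203). The Csk probe was not well above background at either time, at -7.38 and -6.97 at 24 h and -7.55 and -7.09 at 72 h, and was not tested. Where that probe lies relative to the deleted part of the gene was not examined. Among 22 tested Src family kinases and their substrates and adaptors, 0 rose and 4 fell, a share below the 21.5% of all genes. Among the 4 were Src and the adaptors Nedd9 (log2 difference -0.55) and Shc1 (-0.24). The falls numbered 1 with median scaling or without either 72 h array, and 2 without 24 h replicate 1. The kinase Fer, at 1.94 and 2.18 at 24 h and 2.03 and 2.11 at 72 h, differed by 0.01 (SE 0.09, adjusted p = 0.971) with overlapping arrays.

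Immediate early transcription factors fell in 7 of 16 tested members from 24 to 72 h, and 8 were not called. Egr2, a zinc-finger factor of the immediate early class, read -2.24 and -2.03 at 0 h, 2.5 and 2.52 at 6 h, 0.96 and 0.86 at 24 h, and -0.79 and -0.77 at 72 h. Its log2 difference over the last step was -1.69 (SE 0.08, adjusted p = 0.000984). Fos, a subunit of the AP-1 factor, read -1.95 and -1.93 at 24 h and -3.04 and -2.96 at 72 h, a difference of -1.06 (SE 0.13, adjusted p = 0.00652), and at 72 h lay below its 0 h levels of -2.65 and -2.25. Egr1 fell by 0.68, Ier2 by 0.47 and Jun by 0.46 on the log2 scale. One member rose, the stress-induced factor Atf3 (0.21), a call that was lost without any 1 of the 8 arrays. The median difference of the list was -0.09 against 0.02 over all genes. Myc (0.12) and Fosl1 (-0.05), another AP-1 subunit, were not called. Without 24 h replicate 1 the number that fell was 4, without 72 h replicate 1 it was 2, and without 72 h replicate 2 it was 3.

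Of 19 tested genes of ERK pathway output and feedback 7 fell, 0 rose and 12 were not called. These are 36.8% called, against 21.5% of all tested genes, and the median difference was -0.19. With probes well above background on all 4 arrays alone, 6 fell. Dusp6, the cytosolic ERK phosphatase, read 6.03 and 6.16 at 24 h and 5.23 and 5.31 at 72 h, against 3.53 and 3.44 at 0 h. It fell by 0.82 (SE 0.07, adjusted p = 0.00347) and remained well above its 0 h levels. The Sprouty inhibitor Spry1 fell by 0.79 and came to lie below 0 h, at 1.56 and 1.66 against 2.32 and 2.36. Spry4 fell by 0.77 and stayed above its 0 h values, and the phosphatase Dusp5 fell by 0.65, a call lost in 13 of 21 other settings. The test did not call Dusp4 (-0.05), Spry2 (-0.01), Phlda1 (-0.25) or cyclin D1 (Ccnd1, -0.19). Without 72 h replicate 1 the number that fell was 2, and without 72 h replicate 2 it was 4. Per array, the median level of the list above its 0 h mean was 1.29 and 1.37 at 6 h, 1.19 and 1.33 at 24 h and 0.90 and 0.91 at 72 h.

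Genes of the EGF receptor list fell in 4 of 10 tested members and rose in 1. Areg (amphiregulin) read -4.78 and -3.98 at 24 h and -5.41 and -5.33 at 72 h, where it was not well above background, so it was at least 1.56-fold lower (adjusted p = 0.0487). That call was lost in 12 of 20 other settings, and with normexp background correction the difference was -0.12 (adjusted p = 0.394). Hbegf fell by 0.47 and the receptor inhibitor Errfi1 by 0.76. Nrg1, a ligand of the sister receptors, rose by 0.62, from -0.21 and 0.05 to 0.59 and 0.48. The falls numbered 2 without 24 h replicate 1 and 1 without 24 h replicate 2 or either 72 h array, and the rise was lost without 24 h replicate 1 or either 72 h array.

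The calls of the first and the last step of the time course were set side by side. The means of these steps share no array, but both steps were called from the same fit. That fit estimates the spread of each probe from all 8 arrays. A probe with a small spread passes more easily in both steps, so the calls are not independent. Of 2043 genes raised at 6 h over 0 h (10.1% of tested genes), 487 fell from 24 to 72 h, which is 23.8% of the raised list and 22.4% of the late falls. Another 241 of the raised genes rose again (11.8% of the raised list and 11.0% of the late rises). Of 1365 genes lowered at 6 h (6.76%), 300 rose from 24 to 72 h (22% of the lowered list, 13.8% of the late rises) and 229 fell (16.8% and 10.6%). Over all tested genes 10.8% rose late and 10.7% fell. Genes called at 6 h were thus called late more often than all genes in both directions, least so for raised genes that rose again. How much of this excess comes from the shared spread was not tested. Among the 174 genes raised at least 2-fold at 6 h, 74 fell late and 11 rose, with a median late difference of -0.28. Across all genes the differences of both steps correlated at -0.08, which describes genes on the same 8 arrays and is no test.

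**Figure D2:**
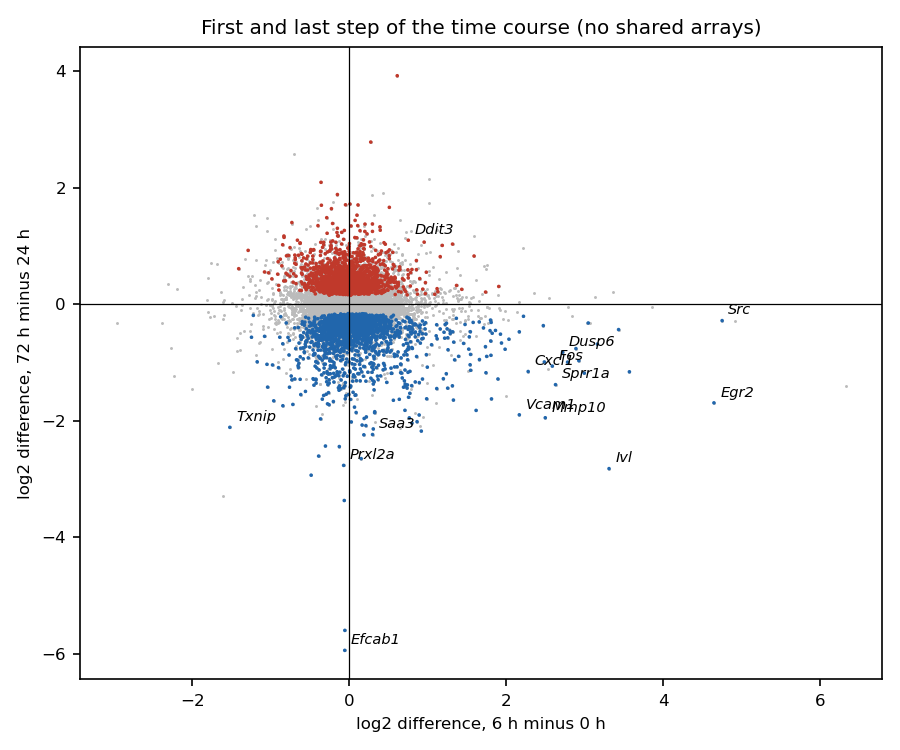
Log2 difference from 24 to 72 h (vertical axis) against the log2 difference from 0 to 6 h (horizontal axis) for 20197 genes, with genes called in the late step in red (rises) and blue (falls). Most genes lie at the centre, and those raised at least 2-fold at 6 h lie mostly below 0 on the vertical axis.

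In the list of 15 tested matrix proteases and inhibitors 6 fell and 3 rose (60.0% called, against 21.5% of all tested genes). Its largest differences were falls of Mmp10, Mmp13 and Mmp3. Mmp10 and Mmp3, the stromelysins, and Mmp13, a collagenase, degrade matrix proteins outside the cell. Mmp3 read -2.91 and -2.89 at 0 h, -1.34 and -1.23 at 6 h, 0.21 and 0.30 at 24 h, and -1.62 and -1.51 at 72 h. Its late difference was -1.82 (SE 0.07, adjusted p = 0.000823). Mmp10 went from 2.62 and 2.43 at 24 h to 0.48 and 0.68 at 72 h, a difference of -1.95 (SE 0.11, adjusted p = 0.00142). Mmp13 went from 2.97 and 2.85 to 1.19 and 1.39, a difference of -1.62 (SE 0.11, adjusted p = 0.00188). All 3 had their highest levels at 24 h and at 72 h were still above 0 h. The other falls were Plat (tissue plasminogen activator, -0.86) and the inhibitors Timp1 (-0.48) and Timp3 (-0.45). The rises were Mmp19 (0.51), Plaur, the urokinase receptor (0.26), and Mmp11 (0.21). These 3 calls were lost without 24 h replicate 1, either 72 h array or either 0 h array. Serpinb2, a urokinase inhibitor, read 0.39 and 0.36 at 24 h and -1.0 and -1.08 at 72 h and was not called (difference -1.41, SE 0.41, adjusted p = 0.06). The gelatinase Mmp2 (0.02) and the membrane protease Mmp14 (0.09) were not called.

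Cornified envelope genes encode, in the epidermis, the cross-linked shell of keratinocytes. Their list, which also holds keratins and S100 genes, showed the lowest median of all the pathway lists. Of 13 tested members 9 fell and 0 rose (69.2% called, against 21.5% of all tested genes), and the median difference was -1.16. Ivl and Sprr2d, well above background only at 24 h of the 2 times, entered the test through that time alone. With probes well above background on all 4 arrays alone, 7 fell. Sprr1a read -0.30 and -0.33 at 0 h, 2.31 and 2.36 at 24 h, and 0.98 and 0.93 at 72 h, a late difference of -1.38 (SE 0.05, adjusted p = 0.000823). Ivl (involucrin) read -2.40 and -2.30 at 24 h and -5.45 and -4.89 at 72 h, where it was not well above background. It was at least 6.37-fold lower (adjusted p = 0.00204), and its other probe differed by -2.57. Loricrin (Lor), which was already below its 0 h levels at 24 h, fell by 1.39, and the keratin Krt7 by 0.85. Sprr2f fell by 1.42, Sprr2k by 1.28 and Sprr2h by 1.16. Sprr2 genes are close copies, and their probes may read each other's RNA. Sprr2d was at least 1.37-fold lower (adjusted p = 0.0405), a call that was lost in 9 other settings, and it had 1 value dropped as an outlier spot at 0 h. Without 24 h replicate 1 or without 72 h replicate 1 the list had 6 falls, and without 72 h replicate 2 it had 5. Of 10 listed epithelial markers 5 passed the filter and 0 were called by limma (2 at an unadjusted p under 0.05), Krt8 (0.25) and Krt18 (-0.17) among them. Lce1g, a late cornified envelope gene outside the list, went the other way, from -2.72 and -2.26 at 24 h to -0.68 and -0.89 at 72 h (1.71, adjusted p = 0.00961).

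Some of these genes carry the letters TGANTCA in the 250 bases before their RefSeq start. N stands for any base, so the pattern is wider than the core bound by AP-1, TGACTCA or TGAGTCA. Promoter windows came from RefSeq on GRCm38.p6, and the palindrome reads the same on both strands. It was found in 7.82% of 27025 promoters, in 5.78% of tested genes with a promoter, in 6.91% of genes that fell and in 4.89% of genes that rose. It was present in 5 of 11 tested protease genes with a promoter (45.5%), of which 3 fell, 1 rose and 1 was not called. The 1 not called was Serpinb2, whose matches read TGAATCA. In the cornified envelope and keratin list 7 of 12 genes held it (58.3%), and those 7 all fell. Among them Ivl and Sprr2d entered the test only through the 24 h arrays, where they were high. The match is a description of these windows and not a binding site. The windows below run 5′ to 3′ in the gene's direction, stop before the start, and show TGANTCA in capitals. They are given for Mmp3, Mmp10, Mmp13, Ivl and Sprr1a, whose falls kept their call in the settings above. The window of Sprr2f, which kept it too, is left out because of its close copies.
Mmp3: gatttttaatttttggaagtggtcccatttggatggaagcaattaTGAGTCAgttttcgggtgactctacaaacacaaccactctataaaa
Mmp10: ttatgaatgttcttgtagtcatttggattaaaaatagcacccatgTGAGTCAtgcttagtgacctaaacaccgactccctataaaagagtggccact
Mmp13: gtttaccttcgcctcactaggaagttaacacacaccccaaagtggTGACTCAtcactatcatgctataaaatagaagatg
Ivl: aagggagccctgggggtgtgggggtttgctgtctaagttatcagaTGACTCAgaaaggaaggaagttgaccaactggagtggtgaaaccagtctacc
Sprr1a: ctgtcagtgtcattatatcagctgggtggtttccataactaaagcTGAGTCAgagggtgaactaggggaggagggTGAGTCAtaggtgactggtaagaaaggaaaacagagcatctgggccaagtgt
In GRCm38.p6 these lie at chr9:7445731-7445821 (Mmp3, plus strand), chr9:7502234-7502330 (Mmp10, plus), chr9:7272434-7272513 (Mmp13, plus), chr3:92573800-92573896 (Ivl, minus) and chr3:92485946-92486072 (Sprr1a, minus). The match in Mmp13 starts 35 bases before the start site and that in Mmp3 starts 46 bases before it. Sprr1a holds 2 matches, starting 146 and 116 bases before the start.

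Proliferins, secreted prolactin relatives, stood far above 0 h throughout. Prl2c5 read -4.23 and -3.99 at 0 h, 3.21 and 3.19 at 24 h, and 2.79 and 2.74 at 72 h, a late difference of -0.43 (adjusted p = 0.0198). Prl2c1 fell by 0.32. Both calls were lost without any 1 of the 24 and 72 h arrays. The copies are nearly identical, and their probes cannot be assigned with certainty.

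Inflammatory genes went both ways. NF-kB is the factor that drives cytokine and adhesion genes and, as negative feedback, its own inhibitor Nfkbia. Vcam1, an adhesion receptor for leukocytes, read 1.84 and 1.91 at 0 h, 4.35 and 4.26 at 24 h, and 2.35 and 2.47 at 72 h. Its late difference was -1.89 (SE 0.07, adjusted p = 0.000823), and its other probe gave -2.31. The neutrophil chemokine Cxcl1 read 0.69 and 0.68 at 6 h, -0.12 and -0.10 at 24 h, and -1.29 and -1.23 at 72 h, a late difference of -1.15 (SE 0.05, adjusted p = 0.000823). Cxcl5 fell by 0.95 and the cytokine Il6 by 0.86. Relb (0.46), Nfkbia (0.36) and the monocyte chemokine Ccl7 (0.31) rose. Of 16 tested members 6 fell and 3 rose (56.2% called, against 21.5% of all tested genes), with a median of -0.01. The number of rises was 1 without 24 h replicate 1, and 0 without 72 h replicate 1 or without 72 h replicate 2.

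Targets of STAT3 and acute-phase genes fell in part by large amounts. Of the STAT3 list 60.0% were called, against 21.5% of all tested genes. Saa3, a serum amyloid A made by fibroblasts and macrophages, read 4.20 and 4.19 at 0 h, 3.67 and 3.39 at 24 h, and 1.28 and 1.32 at 72 h. Its late difference was -2.23 (SE 0.10, adjusted p = 0.000823). Haptoglobin (Hp) went from 0.17 and -0.28 to -1.61 and -1.40, a difference of -1.45 (SE 0.15, adjusted p = 0.00482). Lcn2, which binds bacterial iron carriers, fell by 0.50, Socs3, the feedback inhibitor of the pathway, by 0.44, and Stat3 itself by 0.44. The rises were the kinase Pim1 (0.60) and the cytokine Il11 (0.60). With normexp background correction Pim1 differed by 0.50 and Il11 by 0.31 (limma adjusted p = 0.0578), where Il11 was not called. In all 7 of 15 tested STAT3 targets fell and 2 rose, or 1 without 24 h replicate 1 or either 72 h array. A list of 10 acute-phase genes, put together after their values were seen, had 10 falls and a median of -1.46. It includes Saa1 (-1.86), transferrin (Trf, -1.63), the ferrireductase Steap4 (at least 1.73-fold lower), Il33 (-1.47), Saa2 (-0.70), ceruloplasmin (Cp, -0.43) and complement C3 (-0.33). The median level of that list relative to 0 h was 0.25 and 0.26 at 6 h, -0.54 and -0.82 at 24 h and -2.30 and -2.16 at 72 h.

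Complement genes went both ways, with 85.7% of tested members called against 21.5% of all tested genes. Serping1, the inhibitor of the first complex, read 0.42 and 0.47 at 0 h, -0.34 and -0.66 at 24 h, and -1.37 and -1.29 at 72 h, a late difference of -0.83 (SE 0.11, adjusted p = 0.00834). C4b (-0.83) and C3 fell as well. Without 72 h replicate 1 the calls of Serping1 (-0.79, limma adjusted p = 0.0559) and C4b (-0.79, limma adjusted p = 0.052) were lost. The protease genes of the first complex, C1ra (0.71) and C1s1 (0.58), rose. Thus 4 of 7 tested members fell and 2 rose, and without 72 h replicate 1 the falls numbered 1. Interferon response genes had 2 falls and 2 rises among 17, a called share of 23.5%, near the 21.5% of all tested genes. Gbp2, a GTPase, was lower by 0.93 and Isg15 by 0.25, and Bst2 was higher by 0.28 and Stat2 by 0.24. At 72 h only 1 of the 2 Gbp2 spots passed the background test, and with normexp background correction Gbp2 differed by -0.25. The interferon falls were 1 without 24 h replicate 1 or either 72 h array, and the rises 0 without 24 h replicate 1 or 72 h replicate 1. Of 10 MHC class I genes only B2m was called (0.25, higher), a share of 10% against 21.5% of all tested genes. B2m was not called without any 1 of the 24 and 72 h arrays.

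**Figure D3:**
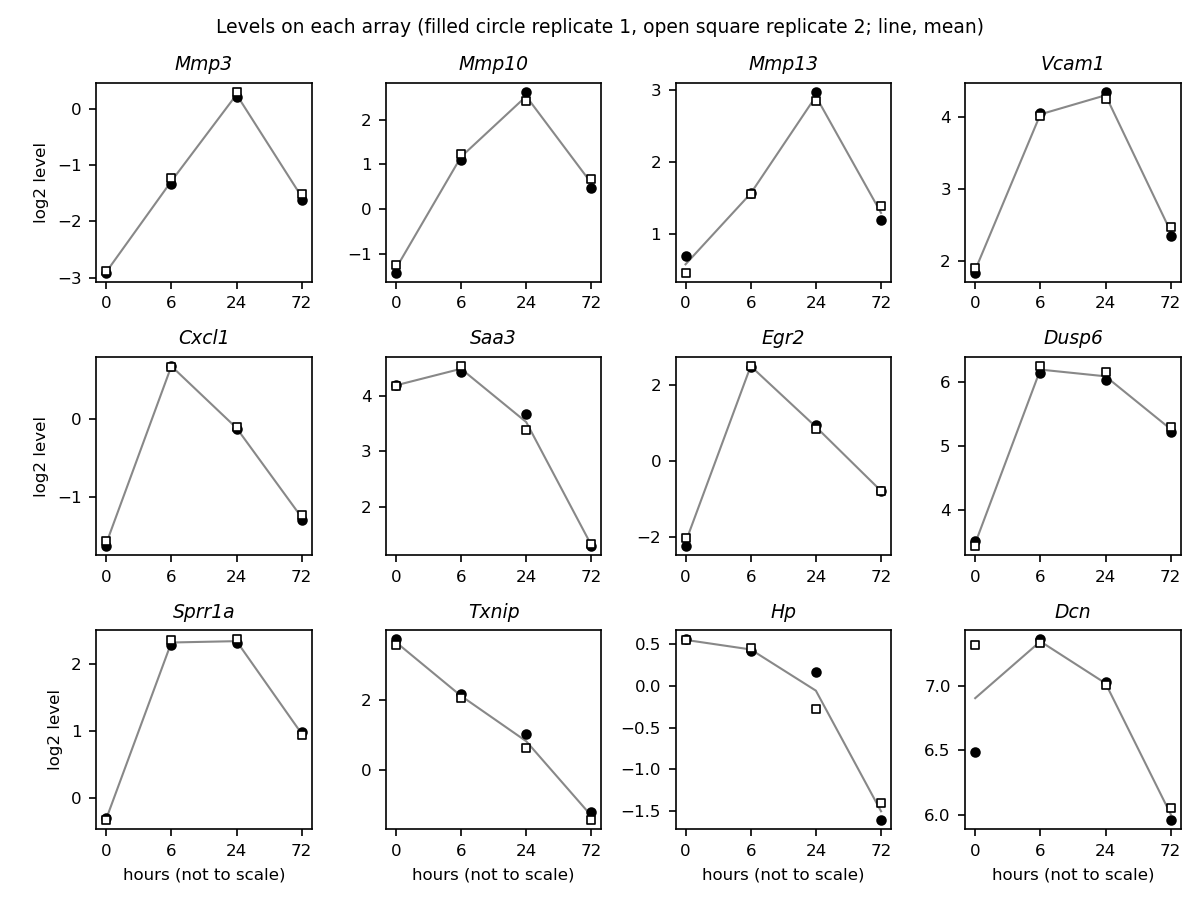
Log2 level relative to the array's 75th percentile (vertical axes, a separate scale for each gene) at 0, 6, 24 and 72 h (horizontal axis, categories) for 12 genes, with filled circles for replicate 1, open squares for replicate 2 and a line through the means. Mmp3, Mmp10 and Mmp13 peak at 24 h, Egr2 and Cxcl1 peak at 6 h, Saa3, Hp and Dcn end below 0 h, and Txnip declines at each time.

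Matrix structure genes fell in part. Elastic fibre, proteoglycan and matricellular genes had 7 falls and 0 rises among 18 tested, with a median of -0.12. Called members were 38.9%, against 21.5% of all tested genes. With probes well above background on all 4 arrays alone, the falls numbered 4. Decorin (Dcn), a small proteoglycan that binds collagen and TGF-beta, read 7.03 and 7.01 at 24 h and 5.96 and 6.05 at 72 h, a difference of -1.01 (SE 0.25, adjusted p = 0.039), though its 0 h arrays lay apart at 6.49 and 7.32. Fibromodulin (Fmod) fell by 1.0, tenascin C (Tnc) by 1.31 and thrombospondin (Thbs1) by 0.60. Tnc passed the background test in 1 of its 2 spots of 72 h, lost its call in 6 of 20 other settings and differed by -0.30 (adjusted p = 0.104) with normexp background correction. Fibulin 5 (Fbln5), an elastic fibre organiser, was at least 3.41-fold lower (adjusted p = 0.0163) and lumican (Lum) at least 2.32-fold lower (adjusted p = 0.0224). Both were well above background only at 24 h of the 2 times, so they entered the test only through the time where they were high. With normexp background correction they differed by -0.49 (Fbln5) and -0.43 (Lum). Fibronectin (Fn1, -0.16), biglycan (Bgn, -0.07) and fibrillin 1 (Fbn1, 0.14) were not called. The number of falls was 3 without 24 h replicate 1, and also 3 without 72 h replicate 1 or without 72 h replicate 2.

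Among 15 collagen genes 4 fell and 2 rose (40.0% called, against 21.5% of all tested genes). Col14a1 (-1.28), Col5a2 (-0.51), Col4a1 (-0.31) and Col16a1 (-0.23) fell, while Col12a1 (0.90) and Col8a1 (0.59) rose. With normexp background correction Col14a1 differed by -0.45, Col5a2 by -0.49, Col12a1 by 0.29 and Col8a1 by 0.58. The major fibril chains Col1a1 (-0.15), Col1a2 (-0.34) and Col3a1 (-0.21) were not called. The collagen falls were 1 without 24 h replicate 1 or 72 h replicate 2 and 0 without 72 h replicate 1, and the rises 1 without either 72 h array. Of 15 collagen processing enzymes 4 fell and 2 rose (40.0% called, against 21.5% of all tested genes). Lox, the lysyl oxidase that cross-links collagen and elastin, went from 1.28 and 1.22 at 24 h to 0.61 and 0.62 at 72 h (-0.64, SE 0.05, adjusted p = 0.00273), against 2.41 and 2.46 at 0 h, while its relative Loxl4 rose by 0.70. For these enzymes the falls were 2 without 24 h replicate 1 and 1 without either 72 h array, and the rises 1 without either 24 h array and 0 without either 72 h array.

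Adhesion receptors changed in a few members by large amounts. The integrin subunit Itgb3 went from -0.23 and -0.34 to -1.67 and -1.57, a difference of -1.34 (SE 0.07, adjusted p = 0.00107). Cadherin 11 (Cdh11), the mesenchymal cadherin, fell by 1.25. Ncam1 fell by 0.82 on its brightest probe, but its other 2 probes gave -0.35 and 0.07. Itgb7 rose by 0.89, from 1.31 and 1.5 to 2.29 and 2.31, against -0.52 and -0.65 at 0 h. In all 4 of 16 fell and 2 rose (37.5% called, against 21.5% of all tested genes). Itgb1 (0.15), Itga5 (-0.06) and N-cadherin (Cdh2, -0.09) were not called. The adhesion rises were 1 without 24 h replicate 1 or either 72 h array. The actin list held 2 falls among 19, Cnn1 (-1.09) and Myl9 (-0.72), both smooth-muscle contractile genes, and 1 rise, the focal adhesion adaptor Tgfb1i1 (0.83). Its called share was 15.8% against 21.5% of all tested genes. With normexp background correction Cnn1 differed by -0.43 and Myl9 by -0.17 (limma adjusted p = 0.168), where Myl9 was not called. Without either 72 h array a fall of this list was lost. Of 15 YAP/TEAD targets 6 rose, led by Ccn5 (1.05, from -2.90 and -2.75 to -1.75 and -1.81), and 3 fell. Ccn1 (0.32) rose and Ccn2 (-0.31) fell, and 60.0% of the list were called against 21.5% of all tested genes. With normexp background correction Ccn5 differed by 0.57. The rises of this list were 1 without 24 h replicate 1, without 72 h replicate 1 or without 72 h replicate 2, and the falls 1 without either 72 h array.

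Among 13 Wnt pathway genes 5 fell and 0 rose (38.5% called, against 21.5% of all tested genes), with a median of -0.25. With probes well above background on all 4 arrays alone, 4 fell. Wnt4 went from 2.31 and 2.13 at 24 h to 1.31 and 1.32 at 72 h (-0.91, SE 0.07, adjusted p = 0.00259), and Wnt5a from -1.20 and -1.42 to -2.37 and -2.24 (-1.0, SE 0.09, adjusted p = 0.00349). Rspo3, which amplifies Wnt signals, was at least 2.95-fold lower (adjusted p = 0.00284). The receptor Fzd1 (-0.56) and Wnt5b (-0.51) also fell. Without 72 h replicate 1 the falls were 3. In the Notch list 3 of 9 fell (33.3% called, against 21.5% of all tested genes). They were the targets Hey1 and Hes1 (-0.79) and the ligand Jag1 (-0.31). Hey1 read 2.15 and 2.16 at 0 h, 1.43 and 1.05 at 24 h, and -0.31 and -0.30 at 72 h, a late difference of -1.54 (SE 0.12, adjusted p = 0.00263).

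Of 17 TGF-beta genes 5 fell and 1 rose (35.3% called, against 21.5% of all tested genes). The ligand Tgfb2 fell by 1.05, from 0.82 and 0.46 to -0.40 and -0.43. Smad3 (-0.41), the ligand Tgfb3 (-0.40) and the target Tgfbi (-0.36) fell, and Ltbp1, which holds the latent ligand in the matrix, rose by 0.83. The falls of this list were 1 without 24 h replicate 1 or without 72 h replicate 1, 3 without 24 h replicate 2 and 2 without 72 h replicate 2. Among 12 BMP and Id genes the related ligands Gdf6 (-1.55, from -2.52 and -2.33 to -3.88 and -4.06) and Gdf5 (1.18, from -3.87 and -3.67 to -2.54 and -2.64) moved in opposite directions. With normexp background correction Gdf6 differed by -0.63 and Gdf5 by 0.50. No other gene of this list was called, and the called share was 16.7% against 21.5% of all tested genes. Of the IGF list 40.0% were called, against 21.5% of all tested genes. Its imprinted non-coding RNA H19 fell by 1.86 (SE 0.08, adjusted p = 0.000823), and the other 2 probes of H19 by 1.13 and 1.1. With normexp background correction H19 differed by -0.73. Irs1, the docking protein of the IGF and insulin receptors, fell by 0.67, and 3 of 10 fell and 1 rose in all, the rise not without 24 h replicate 1 or either 72 h array.

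**Figure D4:**
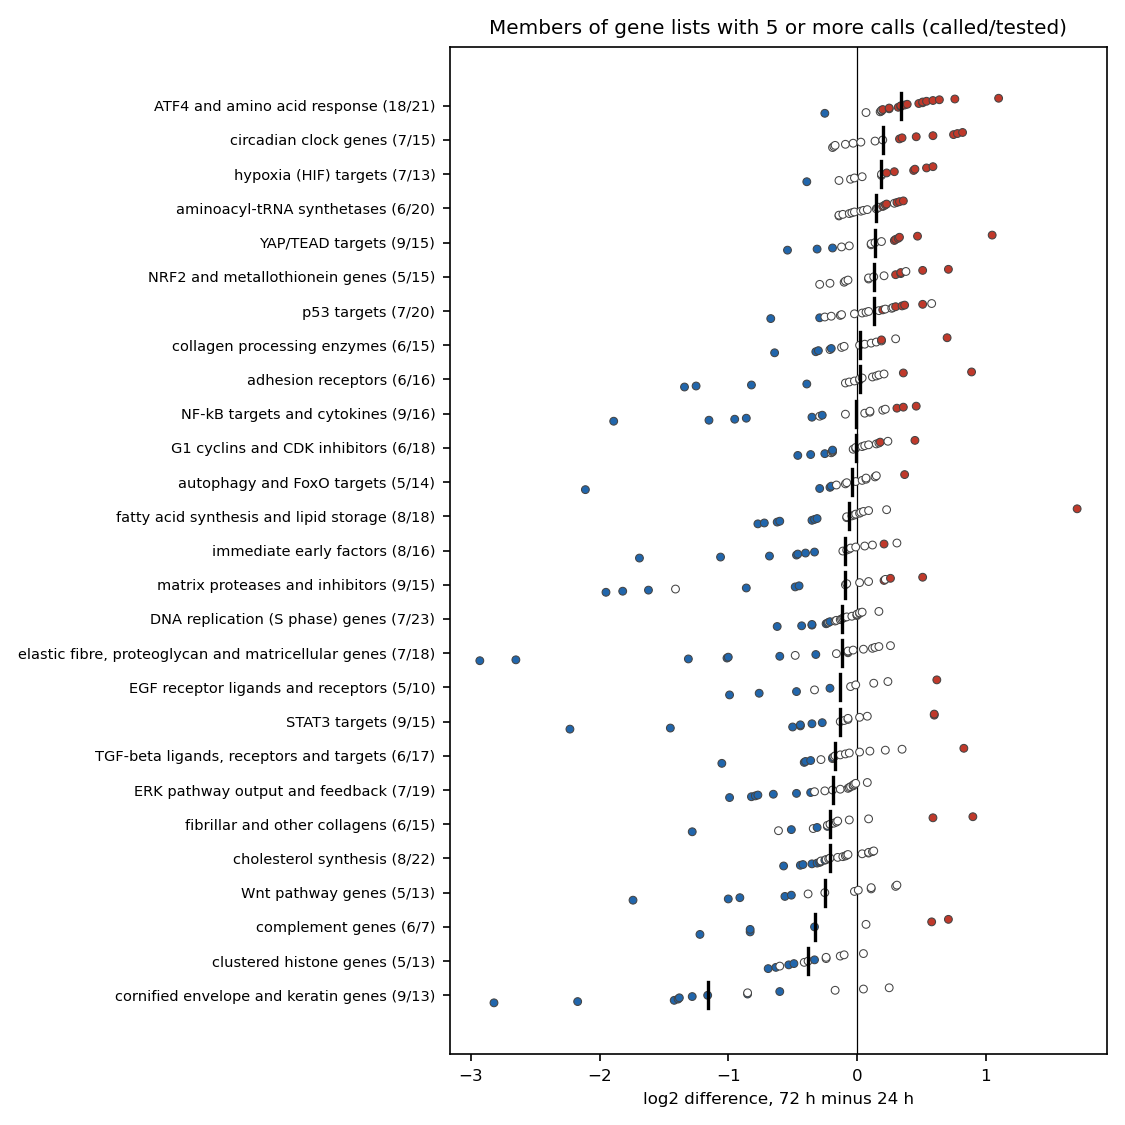
Log2 difference from 24 to 72 h (horizontal axis) for every tested member of the pathway lists with at least 5 calls (vertical axis, called and tested members in brackets; the acute-phase and small nucleolar RNA host lists, collected after their values were seen, are not drawn), as red or blue points where the member was called and open points where it was not, with a bar at the list's median. Of the lists drawn, ATF4 has the highest median, 0.34, and the cornified envelope and keratin list the lowest, -1.16.

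Most ATF4 target genes rose. ATF4 is the transcription factor of the integrated stress response, which switches on amino acid synthesis and import when translation is slowed by eIF2 phosphorylation. Of 21 tested members 17 rose and 1 fell, a called share of 85.7% against 21.5% of all tested genes. Their median difference was 0.34 against 0.02 over all genes. Like the other lists, this one was chosen with earlier results of these data known, and its share is a description and no test. Ddit3 (CHOP), its downstream factor, read 1.12 and 1.23 at 0 h, 1.96 and 1.89 at 6 h, 2.37 and 2.56 at 24 h, and 3.54 and 3.61 at 72 h. Its late difference was 1.1 (SE 0.08, adjusted p = 0.00243). Trib3, a pseudokinase that feeds back on the pathway, went from 4.53 and 4.71 to 5.38 and 5.39 (0.76, SE 0.10, adjusted p = 0.00821). Chac1, which breaks down glutathione, went from 3.62 and 3.75 to 4.29 and 4.36 (0.64, SE 0.07, adjusted p = 0.00524). For all 3 every array of 72 h lay above both arrays of 24 h, and 65.8% of all tested genes had no overlap between the 2 times.

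By role, the factors Atf4 (0.48), Cebpg (0.51) and Atf5 (0.32) rose. Transporters rose too, with Slc3a2 at 0.54, the cystine importer Slc7a11 at 0.51 and the leucine importer Slc7a5 at 0.34, whereas the arginine importer Slc7a1 (0.18) was not called. The mitochondrial folate enzymes Mthfd2 (0.59) and Shmt2 (0.25) and the synthesis enzymes Pycr1 (0.39), Asns (0.37), Aldh18a1 (0.34), Psat1 (0.25), Psph (0.20) and Phgdh (0.19) completed the rises. Ddit4, an inhibitor of mTORC1, fell by 0.25 (not called without any 1 of the 24 and 72 h arrays), and Sesn2 (0.07) and Vldlr (0.19) were not called. Per array, the median level of the list above 0 h was 0.15 and 0.21 at 6 h, 0.49 and 0.54 at 24 h, and 0.88 and 0.83 at 72 h. The rises numbered 13 with median scaling, 9 with only the 4 arrays fitted, 7 without 24 h replicate 1 or without 72 h replicate 2, and 4 without 72 h replicate 1. With dim probes kept in the test, 1 rose. Of 20 aminoacyl-tRNA synthetases, which charge tRNA and include further ATF4 targets, 6 rose and 0 fell (30.0% called, against 21.5% of all tested genes). Their median was 0.15. The rises were Eprs (0.36), Iars (0.33), Sars (0.31), Qars (0.23), Farsb (0.22) and Cars (0.20). Without 24 h replicate 1 or without 72 h replicate 1 the number was 0, without 24 h replicate 2 it was 3, without 72 h replicate 2 it was 1, and with median scaling 2.

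Fgf21, a hormone of metabolic stress that lies outside the list, was among the 15 largest rises. It read 1.28 and 1.30 at 0 h, 1.37 and 1.73 at 24 h, and 2.87 and 2.93 at 72 h, a late difference of 1.35 (SE 0.12, adjusted p = 0.00331). Its arrays of 6 h, at 1.35 and 1.44, lay close to those of 0 h. ER chaperones, the targets of the other branches of the unfolded protein response, had 2 rises among 18, Herpud1 (0.47) and Sel1l (0.23), and 0 falls. The called share was 11.1% against 21.5% of all tested genes, and a rise was lost without any 1 of the 8 arrays. Hspa5 (BiP, 0.10), Dnajb9 (0.11) and Xbp1 (0.10) were not called.

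The composite element read by C/EBP-ATF dimers, TGATGNAA, was searched on both strands in the same 250 bases. It was found in 3.91% of all 27025 promoters, in 2.56% of tested genes, in 3.40% of genes that rose and in 1.97% of genes that fell. In the ATF4 list 5 of 20 promoters held it (25%), those of Asns, Chac1, Pycr1, Slc7a11 and Vldlr, and that of Fgf21 did as well. A match describes letters only. The windows of the matching genes that rose are printed 5′ to 3′ in the direction of the gene, with the element in capitals, either as TGATGNAA or as its reverse complement.
Slc7a11: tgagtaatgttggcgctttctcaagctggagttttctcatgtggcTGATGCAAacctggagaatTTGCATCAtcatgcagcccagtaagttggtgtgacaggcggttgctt
Chac1: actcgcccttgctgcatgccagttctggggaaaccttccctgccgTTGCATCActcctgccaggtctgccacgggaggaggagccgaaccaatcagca
Pycr1: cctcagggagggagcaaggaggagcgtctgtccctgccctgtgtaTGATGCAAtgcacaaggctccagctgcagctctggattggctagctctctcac
Asns: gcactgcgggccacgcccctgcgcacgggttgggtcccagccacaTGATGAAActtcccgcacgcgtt
Fgf21: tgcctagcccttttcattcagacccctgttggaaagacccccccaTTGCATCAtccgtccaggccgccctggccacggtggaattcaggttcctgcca
They lie in GRCm38.p6 at chr3:50443614-50443724 (Slc7a11, minus strand), chr2:119351004-119351101 (Chac1, plus), chr11:120643799-120643896 (Pycr1, minus), chr6:7693210-7693277 (Asns, minus) and chr7:45615577-45615674 (Fgf21, minus). Slc7a11 holds 2 copies in opposite orientation, starting 66 and 47 bases before the start. The copy in Asns starts 23 bases before it.

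Host genes of small nucleolar RNAs rose as well. These spliced transcripts carry the small RNAs in their introns, have poorly coding exons and are degraded by nonsense-mediated decay when they are translated. Of 11 tested genes, collected after their values were seen, 8 rose and 0 fell, and the median was 0.58. Snhg12 went from 2.91 and 3.21 at 24 h to 4.13 and 4.23 at 72 h (1.12, SE 0.10, adjusted p = 0.00369). Zfas1 went from 4.26 and 4.72 to 5.53 and 5.58 (1.07, SE 0.14, adjusted p = 0.00771), and Snhg1 from 2.41 and 2.64 to 3.57 and 3.57 (1.04, SE 0.09, adjusted p = 0.00301). Snhg1 and Snhg12 kept the call in every setting named above. Gas5 rose by 0.77 on its brightest probe, whereas its other 2 probes gave -0.05 and 0.13, and Snhg16 rose by 0.75 on the brightest and differed by -0.02 on the other. Snhg20, Snhg3 and Snhg10 were not called. For the list the median level above 0 h was 0.00 and -0.04 at 6 h, 0.15 and 0.30 at 24 h, and 0.75 and 0.76 at 72 h. Genes for cytosolic ribosomal proteins, whose messages are regulated with these hosts through a shared start motif, had 1 rise, Rpl10a (0.26), among 21 (4.76%). Ribosome biogenesis genes had 3 falls among 20 (15%), and both called shares lay below the 21.5% of all tested genes. None of these 4 was called without 24 h replicate 1 or either 72 h array.

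**Figure D5:**
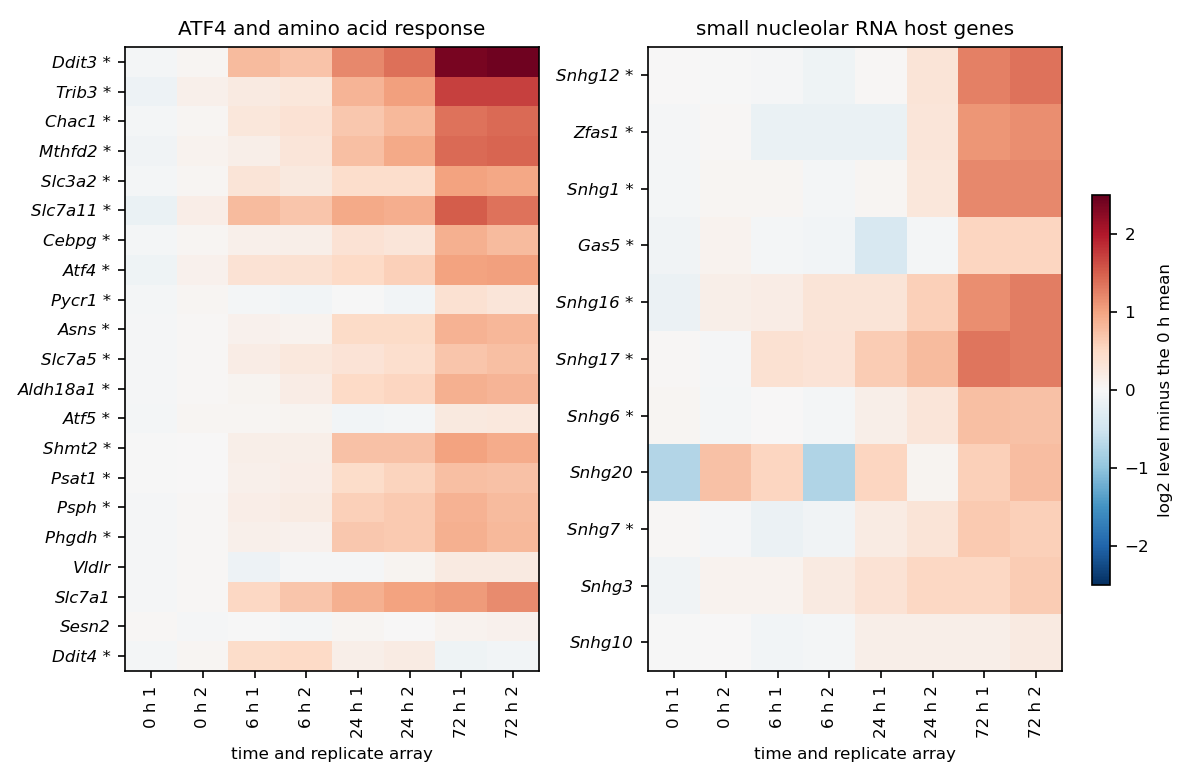
Log2 level of each gene minus its mean at 0 h, as colour (red higher, blue lower), on each of the 8 arrays (horizontal axis) for the 21 tested ATF4 list genes (left) and the 11 host genes of small nucleolar RNAs (right), ordered by late difference, with an asterisk where the gene was called. Most ATF4 genes are already above 0 h at 24 h and darken at 72 h, while the median host gene is at 0.15 and 0.30 at 24 h and at 0.75 and 0.76 at 72 h.

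Metabolic genes changed unevenly. Txnip, an arrestin that limits glucose uptake and inhibits thioredoxin, read 3.71 and 3.56 at 0 h, 2.17 and 2.05 at 6 h, 1.02 and 0.63 at 24 h, and -1.17 and -1.41 at 72 h. Its late difference was -2.11 (SE 0.15, adjusted p = 0.00227), and its other probe gave -2.14. It declined at each time. Of 22 cholesterol synthesis genes 8 fell and 0 rose (36.4% called, against 21.5% of all tested genes), with a median of -0.21. Stard4, a sterol carrier, fell by 0.57, the last-step reductase Dhcr7 by 0.42, and the isomerase Idi1 by 0.35. These falls numbered 4 with median scaling, 5 without 24 h replicate 1, 3 without 24 h replicate 2, 1 without 72 h replicate 1 and 3 without 72 h replicate 2.

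In the fatty acid and lipid storage list 7 of 18 fell and 1 rose (44.4% called, against 21.5% of all tested genes). Lipoprotein lipase (Lpl) fell by 0.77, from 1.89 and 1.76 to 1.04 and 1.07, the adipogenic factor Cebpa by 0.72, the desaturase Fads2 by 0.62 and the elongase Elovl6 by 0.60. The rise was Plin4, a coat protein of lipid droplets, from -3.69 and -3.49 to -1.85 and -1.93 (1.71, SE 0.28, adjusted p = 0.0133), a call lost without 24 h replicate 1 or either 72 h array. The falls of this list were 3 without 24 h replicate 1, 4 without 72 h replicate 2 and 4 with median scaling. Glycolysis had 2 rises, Pdk1 (0.45) and Aldoa (0.29), and 1 fall, Pkm (-0.20), among 17, a called share of 17.6% against 21.5% of all tested genes. Its rises were 1 without 24 h replicate 1, 4 without 24 h replicate 2 and 0 without either 72 h array, and the fall was lost without any 1 of these 4 arrays. Of 23 oxidative phosphorylation genes 0 were called by limma, 4 had an unadjusted p under 0.05, and their differences lay between -0.20 and 0.17. Shares called were 53.8% for hypoxia targets and 33.3% for NRF2 and metallothionein genes, against 21.5% of all tested genes. Of 13 hypoxia targets 6 rose and 1 fell. Ero1a, an ER oxidase, rose by 0.59, Ndrg1 by 0.54, Pdk1 by 0.45 and the mitophagy receptor Bnip3 by 0.44, while Vegfa (-0.05) and Car9 (-0.14) were not called. The hypoxia rises were 3 without 24 h replicate 1, and 1 without 72 h replicate 1 or without 72 h replicate 2. Of 15 NRF2 and metallothionein genes 5 rose and 0 fell, led by the quinone reductase Nqo1 (0.71, from -2.59 and -2.63 to -1.91 and -1.88), and the rises were 1 without 24 h replicate 1 or without 72 h replicate 2 and 2 without 72 h replicate 1.

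Circadian clock genes rose in 7 of 15 members (46.7% called, against 21.5% of all tested genes), with 0 falls and a median of 0.20. Ciart went from -2.12 and -1.92 to -1.16 and -1.24 (0.82, SE 0.09, adjusted p = 0.00537), and the output factor Dbp from 3.09 and 3.29 to 4.0 and 3.96 (0.78, SE 0.07, adjusted p = 0.00381). The nuclear receptors Rora (0.75) and Nr1d1 (0.59) and the repressor Cry1 (0.46) rose. Arntl (BMAL1, -0.09), Per2 (0.03) and Per1 (0.14) were not called. Clock times of harvest are not given in the sources used here. The rises were 4 without 24 h replicate 1 and 3 without 72 h replicate 1.

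Proliferation genes were read in lists of mitosis and of S phase, and the difference between the lists was not tested. Of 25 mitotic genes 2 fell, Bub1b (-0.26) and Plk1 (-0.21), and 0 rose, a called share of 8% against 21.5% of all tested genes. Mki67 (-0.02) and Cdk1 (-0.11) were not called. Both falls were lost without 24 h replicate 1 or either 72 h array, and a fall was lost without 24 h replicate 2. Of 23 replication genes 7 fell and 0 rose (30.4% called, against 21.5% of all tested genes), with a median of -0.12. The ribonucleotide reductase subunit Rrm2 went from 5.28 and 5.22 to 4.60 and 4.65 (-0.62, SE 0.05, adjusted p = 0.00284). Cdc6 fell by 0.35 and thymidine kinase (Tk1) by 0.35, while the Mcm helicase subunits were not called. Without 24 h replicate 1 the replication falls were 4, without 72 h replicate 1 they were 1 and without 72 h replicate 2 they were 2. With median scaling they were 3. Clustered histone genes fell in 5 of 13 members, with a median of -0.38, led by H2bc4 (-0.69) and H1f2 (-0.63), and in 3 without 72 h replicate 1 or without 72 h replicate 2. Of the clustered histone list 38.5% were called, against 21.5% of all tested genes. Labelling used oligo-dT priming, which reads histone messages without a poly(A) tail poorly. G1 cyclins and CDK inhibitors were called in 33.3% of tested members, against 21.5% of all tested genes. The CDK inhibitors Cdkn2c (-0.46), Cdkn2b (-0.36) and Cdkn2d (-0.25) fell, Rb1 rose by 0.45, and Cdkn1a (0.17) was not called. In their list of G1 cyclins and CDK inhibitors the 4 falls became 0 with median scaling, without 24 h replicate 1 or without either 72 h array. Of 20 p53 targets 35.0% were called, against 21.5% of all tested genes. Among them 5 rose, including the BH3-only gene Bbc3 (0.51), Fas (0.37) and Ccng1 (0.35), and 2 fell, Btg2 (-0.67) and Perp (-0.29). The p53 rises were 2 without 24 h replicate 1, and 1 without 72 h replicate 1 or without 72 h replicate 2, and the falls 0 without either 72 h array.

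Outside the lists, the largest falls with a level well above background on at least 1 array of each time were Prxl2a, a peroxiredoxin-like protein, and the secreted pseudokinase Fam20a. Prxl2a read 2.91 and 2.79 at 0 h, 2.41 and 1.98 at 24 h, and -0.68 and -0.46 at 72 h, a late difference of -2.76 (SE 0.15, adjusted p = 0.00128). Fam20a fell by 2.43, from -2.64 and -1.59 to -4.29 and -4.79, the receptor Gprc5c by 2.24 and the transcriptional repressor Hic1 by 2.14. At 72 h these 3 passed the background test in only 1 of 2 spots each, and with normexp background correction they differed by -0.95 (Fam20a), -0.78 (Gprc5c) and -0.86 (Hic1). Tmem255a, a membrane protein, was at least 5.89-fold lower, the axon guidance signal Sema3d at least 3.17-fold lower, and D17H6S56E-5 at least 1.73-fold lower, each being well above background at 24 h and not at 72 h. Efcab1 (at least 15.4-fold lower) and Rpl10l (at least 12.1-fold lower) showed the largest falls of all. Both probes read near background on all 6 arrays of 0, 6 and 72 h, and between -1.44 and -1.02 on both 24 h arrays. Their spots lie in the same array column, 41, in rows 8 and 10. Of 21 other probes within 2 positions of the Efcab1 spot 1 was raised in this way, and 0 of 22 around the Rpl10l spot. Whether these readings come from the spots or from the RNA was not tested.

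The largest rises with a level well above background on at least 1 array of each time included the lipocalin-type prostaglandin D synthase Ptgds and the secreted factor Angptl6. Ptgds went from -2.37 and -1.97 to -0.63 and -0.65 (1.53, SE 0.13, adjusted p = 0.00310), and Angptl6 from 1.64 and 1.83 to 3.20 and 3.24 (1.49, SE 0.08, adjusted p = 0.00128), against 1.63 and 1.78 at 0 h. Maats1, a ciliary gene, rose by 1.40, the exchanger Slc24a3 by 1.39, the small GTPase Rab39b by 1.38, the ciliary transcription factor Rfx3 by 1.35 and the trafficking subunit Trappc8 by 1.35. Rab39b passed the background test in 1 of its 2 spots of 24 h. With normexp background correction Maats1 differed by 0.88, Slc24a3 by 1.13, Rab39b by 0.46, Rfx3 by 0.57 and Trappc8 by 0.76. Lilrb4a, an inhibitory receptor of myeloid cells, was at least 2.98-fold higher (adjusted p = 0.0139), reading -5.14 and -4.91 at 24 h and -3.06 and -3.55 at 72 h. Other genes not well above background at 24 h were the folate enzyme Aldh1l1 (at least 2.72-fold higher), Krt78 (at least 1.85-fold), Mst1 (at least 1.47-fold) and Cibar2 (at least 1.33-fold). The call of Aldh1l1 (adjusted p = 0.0498) was lost in 14 other settings. A further 4 features known only by a locus or transcript name rose by 1.89 to 3.92, and were singled out after their values were seen.

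Of 15 listed fibroblast and mesenchymal markers 12 passed the filter, and of these 33.3% were called against 21.5% of all tested genes. Thy1, Fap and Prrx1 did not pass it. Of 12 tested mesenchymal markers the PDGF receptors Pdgfrb (-0.96, from 1.09 and 0.85 to -0.03 and 0.05) and Pdgfra (-0.72) fell, Vim (0.38) and Twist2 (0.24) rose, and Snai2 (-0.02) and Zeb1 (0.20) were not called. These rises were 0 without either 72 h array. Of 10 listed macrophage and leukocyte markers 5 passed the filter. Cd68 rose by 1.03, from -4.56 and -4.07 to -3.33 and -3.23, or by 0.35 with normexp background correction. Csf1r fell by 0.38, from 0.90 and 0.79 to 0.40 and 0.53. Itgam, Cd14 and Fcer1g were not called, and the part of such cells in the rise of Lilrb4a was not tested. Neither Cd68 nor Csf1r was called without either 72 h array. The fall of Csf1r was also not called with median scaling or with the median over its probes. Over the settings its difference ran from -0.44 to -0.07. The median level of these markers above 0 h was 0.42 and 0.40 at 24 h and 0.29 and 0.15 at 72 h. Of 3 endothelial and 3 skeletal muscle markers 0 were called by limma (1 and 1 at an unadjusted p under 0.05), and of 2 adipocyte markers Pparg fell by 0.31. In RNA from a whole culture, fewer cells of a type and less RNA per cell cannot be told apart.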

How the data were processed

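The arrays are 1-colour 60-mer oligonucleotide arrays of mouse transcripts. RNA was labelled with Cy3 after oligo-dT priming, per the labels' protocols. The deposited files hold, per the file headers, the background-subtracted processed signal of each spot as an intensity on a linear scale. Those headers name Feature Extraction 10.5.1.1 and mm9. The submitters' processing notes give 10.7.3.1 instead. The deposited value table matched these signals within 0.497%.

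The log2 of each intensity was taken and the array's 75th percentile over the 59305 non-control spots subtracted. Outlier spots were left out, which cost 11 probes a value, and spots of a probe were averaged. Names came from RefSeq by accession (26582 probes), symbol (2602) or synonym (492), and 26005 probes kept the file's name. A gene was represented by its tested probe with the highest mean signal at 24 and 72 h. limma 3.58.1 in R 4.3.3 fitted 4 means to 8 arrays (4 residual and 1.8 prior degrees of freedom, median SE 0.0796), with two-sided moderated tests and Benjamini-Hochberg adjustment over all tested probes. The 0 and 6 h arrays entered to estimate the spread. The number of arrays limits the precision. A gene not well above background on either array of a time has only a bound there. Its fold, "at least N-fold", sets the brighter mean against, per array, the higher of the lowest signal well above background and the gene's own.

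The fit was tested on simulated data of 27576 probes, with 200 changed in each of 10 draws. It called 3% of 1.25-fold, 54.8% of 1.5-fold, 80.8% of 2-fold and 96% of 4-fold changes, and 0.0256% of unchanged probes. In the data 21.2% of probes were called, a far larger share than was changed in the simulation. The Benjamini-Hochberg threshold was therefore less strict in the data, and these shares do not describe its power or its false calls.

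Genes were named by rule. The rule takes Src, Csk and Fer, the 15 largest called rises and falls with a gene symbol, and, from every list, the 4 called members with the largest differences at most. Other genes named were chosen after their values were seen. The members and lists were chosen with earlier results of these data known. Alternatives changed the scaling, background correction, filter, arrays fitted, replicate block, variance trend, gene summary and left-out array. Some members of the lists are not reported here by name.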

Additional observations from a re-analysis of the deposited data

How the results depend on the processing

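Arrays with the same replicate number also share a slide column, and they were weakly alike at every pair of times. Deviations of same-numbered arrays correlated at 0.0709 between 24 and 72 h and at 0.0698 to 0.158 over all pairs of times. With replicate number as a block the calls were 2434 genes higher and 2335 lower, against 2181 and 2170 without it. With that replicate block fitted to the 24 and 72 h arrays alone, 0 genes and 0 probes were called in either direction, 0 at least 2-fold and 0 list members, while 6308 genes had an unadjusted p under 0.05 (7525 with all arrays and no block). With only those 4 arrays and no block, limma called 606 genes higher and 810 lower (880 and 1115 probes) and 106 list members.

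With dim probes kept, 64 genes were higher and 186 lower (90 and 237 probes), 24 and 117 of them at least 2-fold. Under that setting 41 genes were called at both the first and the last step, against 1257, and 34 list members were called. Of 274 called members and named genes, 227 lost their call there, 83 with median scaling and 142 with only the 4 arrays. Median scaling gave 942 lower genes and 1289 lower probes, and 522 genes called at both steps. An intensity trend in the variance gave 2123 at both. Normexp background correction left 10 genes at least 2-fold higher and 70 lower.

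Leaving out 1 array in turn, higher genes ranged from 402 to 2008 and lower genes from 638 to 1773. Higher probes ranged from 578 to 2611 and lower probes from 882 to 2436. Genes at least 2-fold higher ranged from 52 to 137 and at least 2-fold lower from 174 to 230. Genes called at both steps ranged from 299 to 1068 and called list members from 81 to 199. Fer, not called, ranged from -0.12 to 0.13 and changed sign with the percentile taken over spots bright on all arrays (-0.03), without 24 h replicate 1 (-0.12) and without 72 h replicate 2 (-0.03), and Ncam1 with the median over its probes (0.07). The cause of these shifts was not tested. Dim genes have only bounds, since signals near background carry no measured fold.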

Other observations

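Some further gene groups were compared between 24 and 72 h. Of 19 lysosome genes 3 rose, among them the cholesterol exporter Npc1 (0.54) and the calcium channel Mcoln1 (0.37), and 1 fell. The fall was in cathepsin K (Ctsk), a collagen-degrading protease, which went from -2.70 and -3.13 to -4.04 and -3.66 (-0.93, SE 0.22, limma adjusted p = 0.0329). The called share, 21.1%, was near the 21.5% of all tested genes, and 0 were called without either 72 h array. Of 14 autophagy and FoxO targets 4 fell, Txnip and with it Map1lc3b (-0.29), Gabarapl1 (-0.21) and Foxo1 (-0.20), and the PI3-kinase inhibitor Pik3ip1 rose (0.37). Called members were 35.7% of this list, but the falls numbered 1 with median scaling, without 24 h replicate 1 or without either 72 h array, and 2 without 24 h replicate 2. Map1lc3b lost its call in 10 of 21 other settings, Gabarapl1 in 9 and Foxo1 in 12. Of 11 heat shock chaperones only the co-chaperone Dnaja1 was called, as a fall (-0.23), a share of 9.09% against 21.5% of all tested genes. Hspa1a (0.50) was not called. Dnaja1 was not called without any 1 of the 24 and 72 h arrays. Ribosome biogenesis genes fell in 3 of 20 members, Polr1b (-0.29), Pes1 (-0.26) and Fbl (-0.25), a share of 15% against 21.5% of all tested genes. These falls were lost without 24 h replicate 1 or either 72 h array. The median level of the list above 0 h was 0.67 and 0.62 at 24 h and 0.66 and 0.62 at 72 h.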
